A study of Mus musculus with 199 samples.

Results

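The genes described here are 37 members of the pathways that make cholesterol and fatty acids, together with the factors that switch those pathways on. They were chosen by name and not by a measured value. All 37 were found once each among the 37713 genes of the deposited count table. They comprise 7 genes of the mevalonate pathway, 11 genes that carry farnesyl diphosphate through squalene to cholesterol, 6 regulators and carriers, 5 genes that lead to palmitate and 8 genes that lengthen, desaturate or esterify fatty acids.

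The study sequenced RNA from male wild-type C57BL/6 mice of an in-house colony, in which liver cancer was induced with the carcinogen DEN and a high-fat, high-sugar diet called ALIOS, a model of hepatocellular carcinoma arising in fatty liver disease. Of its 199 libraries, 65 came from whole tissue: 25 large tumours, 25 small tumours and 15 pieces of liver tissue. The liver tissue carries DEN ALIOS in its title but "Normal" as its treatment, and the protocol calls it healthy tissue, so what those mice received cannot be read from the labels with certainty. No animal is given for the whole-tissue libraries, so p-values there measure the spread between samples, and several tumours may share a mouse.

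The other libraries came from sorted cells, 61 from Ly6G+ neutrophils and 73 from CD3+ T cells, taken from liver by their titles (the protocol speaks of tumours) and from blood. DEN ALIOS mice received anti-PD1 (an antibody that releases a brake on T cells; 5 liver and 5 blood libraries of each cell type), a CXCR2 inhibitor (a blocker of a neutrophil chemokine receptor; 10 and 10 libraries of neutrophils, 6 and 6 of T cells), the combination of both (8 and 10 of neutrophils, 5 and 5 of T cells) or neither agent (6 and 7 of each cell type, here called untreated). Among these, 6 libraries of the untreated groups are labelled vehicle and 16 of the CXCR2 inhibitor groups carry an isotype antibody. T cells were also taken from mice given the CXCR2 inhibitor without DEN ALIOS (6 and 6) and from mice given PBS (8 and 8), which are the study's mice without the cancer regimen. Liver and blood came from the same animal in 29 neutrophil pairs and 36 T cell pairs. No ages are used here.

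Cholesterol is built from acetyl-CoA through mevalonate, isoprenoid diphosphates, squalene and lanosterol. The transcription factor SREBP2, made from Srebf2, turns on most genes of this route when membranes run short of sterol, and INSIG proteins hold its carrier SCAP in the endoplasmic reticulum when sterol is plentiful. SREBP1c, made from Srebf1, responds to insulin and drives the synthesis of palmitate by ACLY, ACC and fatty acid synthase and its desaturation to oleate by SCD enzymes. In liver both routes run at a high rate, and they share the acetyl-CoA and NADPH supplied by ACLY, ACSS2 and malic enzyme.

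Stretches of promoter are shown for 4 members whose RNA is described below, because SREBP factors act together with the CCAAT-binding factor NF-Y at promoters of both routes. Each is 200 bases of the gene's strand before the RefSeq start (GRCm38.p6), ending at offset −1 from it, or at −18 for Lss, where annotated exon bases were left out. They lie at chr13:119690151-119690350 (plus strand) for Hmgcs1, chr10:76531388-76531587 (plus) for Lss, chr11:120824548-120824747 (minus) for Fasn and chr11:60222582-60222781 (minus) for Srebf1. Capitals mark CCAAT or its reverse complement ATTGG, and in Hmgcs1 also TCACNCCAC, a sterol response element.
Hmgcs1: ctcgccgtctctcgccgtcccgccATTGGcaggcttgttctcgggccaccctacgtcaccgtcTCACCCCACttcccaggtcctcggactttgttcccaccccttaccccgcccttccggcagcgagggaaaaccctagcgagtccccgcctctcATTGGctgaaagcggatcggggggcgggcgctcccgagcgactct
Lss: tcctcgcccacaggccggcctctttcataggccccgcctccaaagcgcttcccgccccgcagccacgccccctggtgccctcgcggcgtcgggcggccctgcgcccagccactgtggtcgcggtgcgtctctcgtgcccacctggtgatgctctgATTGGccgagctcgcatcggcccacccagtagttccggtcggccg
Fasn: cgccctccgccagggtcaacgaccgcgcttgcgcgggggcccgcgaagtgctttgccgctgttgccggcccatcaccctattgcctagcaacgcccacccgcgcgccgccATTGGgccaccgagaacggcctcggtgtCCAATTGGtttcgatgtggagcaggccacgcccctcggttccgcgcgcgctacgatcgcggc
Srebf1: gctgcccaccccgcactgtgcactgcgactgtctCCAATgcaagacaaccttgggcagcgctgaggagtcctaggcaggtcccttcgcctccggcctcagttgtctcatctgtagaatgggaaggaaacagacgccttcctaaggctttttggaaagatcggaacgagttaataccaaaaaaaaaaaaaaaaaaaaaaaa

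RefSeq windows were matched for 29 of the 37 members and searched on both strands over the 250 bases before the start. CCAAT was in 24 of the 29 windows (82.8%), against 37.5% of all 27025 genes with a window. It was in 14 of 15 members of the sterol routes and in 5 of 9 members of the fatty acid routes, the rest being regulators. TCACNCCAC was in 1 window, that of Hmgcs1, against 1.22% of all genes. The E-box CACGTG was in 5 (Dhcr7, Elovl5, Hsd17b7, Insig1 and Sc5d; 17.2%), against 6.86% of all genes. These matches describe letters in a window and do not show that a factor binds there.

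Whole-tissue libraries held 12055434 to 21850190 counted reads, neutrophil libraries 580113 to 9256224 and T cell libraries 337110 to 10755816. Levels are counts scaled to a library of 1000000 reads (CPM), after library sizes were adjusted between samples by the TMM method. The limits for a count of 0 and the cutoffs of 200 and 20 CPM given below use unadjusted library sizes. A count of 0 allows up to 0.137 to 0.249 CPM in whole tissue, 0.324 to 5.17 CPM in neutrophils and 0.279 to 8.90 CPM in T cells (3 counts per library), which covers counting error only. A gene is called where edgeR's quasi-likelihood test, adjusted over all genes tested by the Benjamini-Hochberg method, gave p under 0.05. Summed neutrophil markers (7 genes) had a median of 9985 to 38211 CPM over the neutrophil groups, with a lowest library at 889 CPM in liver under anti-PD1, and 2.76 to 28.3 CPM over the T cell groups. Summed T cell markers (6 genes) had a median of 1668 to 3261 CPM over the T cell groups and 1.43 to 19.2 CPM over the neutrophil groups. In liver-derived sorted cells, RNA of other cells was measurable: 9 liver neutrophil and 11 liver T cell libraries exceeded 200 CPM of summed hepatocyte markers, and 0 blood libraries did. Of all neutrophil libraries, 4 exceeded 20 CPM of the T cell gene Cd3e, and 2 neutrophil and 2 T cell libraries held under 1000000 reads. In bulk samples, fewer cells of a type and less RNA per cell cannot be told apart.

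The first comparison asks how tumours differ from liver tissue. Most cholesterol synthesis genes were higher in tumours of both sizes, while genes of the fatty acid routes went both ways. Sqle, which oxidises squalene, was 2.50 ± 0.20 higher in large tumours on the log2 scale (SE), and Scd2, a stearoyl-CoA desaturase, 2.65 ± 0.27 higher. Srebf1 was 1.47 ± 0.18 lower, Scd1 1.20 ± 0.24 lower and Elovl3, an elongase of very long chains, 4.21 ± 0.55 lower.

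In large tumours 23 of the 37 members were called higher and 9 lower, where 70.5% of 14538 genes tested were called (38.5% higher and 32.1% lower). In small tumours 23 were called higher and 8 lower, where 65.7% of genes were called (34.7% higher and 31% lower). The members' median log2 fold change was 0.54 in large and 0.57 in small tumours, beside 0.05 and 0.03 over all genes tested. The same 23 members were called higher at both sizes. The same 8 were called lower at both, namely Ebp, Srebf1, Thrsp, Acss2, Me1, Elovl3, Elovl6 and Scd1. Both size comparisons use the same 15 liver tissue libraries. Acat2, Tm7sf2, Insig2, Acaca and Fasn were called in neither.

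**Figure D1:**
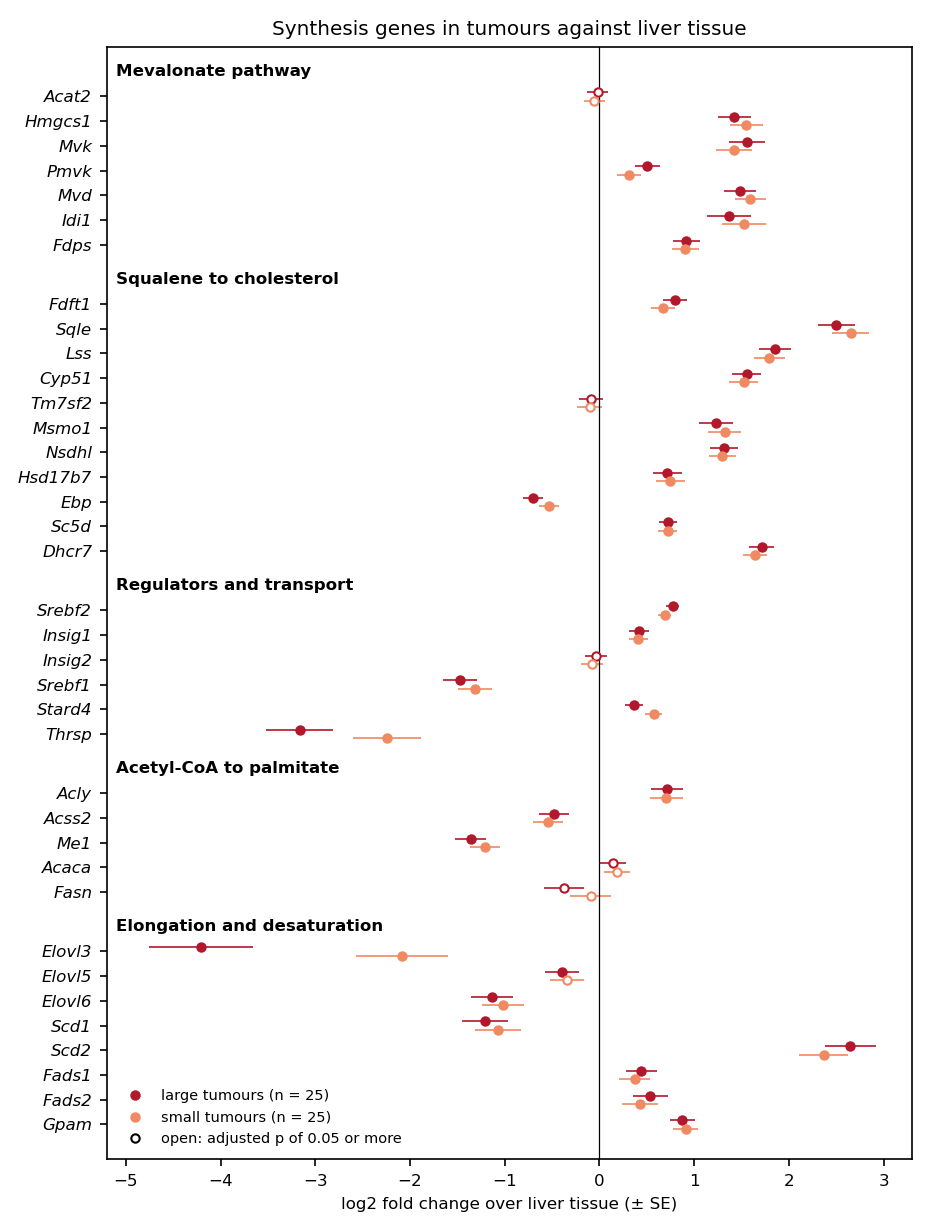
Log2 fold change of each of the 37 members in large and in small tumours against liver tissue, grouped by role, with bars of 1 SE; open symbols did not pass the test. Members of both sterol routes lie mostly to the right of 0, up to 2.65 for Sqle in small tumours, and Srebf1, Thrsp, Me1, Elovl3, Elovl6 and Scd1 lie to the left.

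Of the 7 mevalonate pathway genes, 6 were called higher and 0 lower at both sizes, with a median log2 fold change of 1.36 in large and 1.42 in small tumours. Hmgcs1, the synthase that makes HMG-CoA, had 89.4 CPM in the lowest, 343 in the median and 616 in the highest large tumour, and 147, 448 and 862 CPM in small tumours, against 95.3, 160 and 271 CPM in liver tissue. Both tumour groups reached far above the liver tissue range. Large tumours also covered all of it, and small tumours its upper part. Its log2 fold change was 1.43 ± 0.17 in large tumours (adjusted p = 9.31e-11) and 1.55 ± 0.17 in small tumours.

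Mvk, mevalonate kinase, had 20.8, 37.0 and 112 CPM in large tumours and 20.7, 42.6 and 66.5 CPM in small tumours, against 11.5, 14.5 and 21.1 CPM in liver tissue, so the groups met only at their edges. Mvd, the decarboxylase at the end of the mevalonate steps, had 18.2, 39.0 and 61.1 CPM in large and 17.1, 41.9 and 72.4 CPM in small tumours, against 8.4, 14.7 and 24.9 CPM in liver tissue. The log2 fold change was 1.56 ± 0.19 in large and 1.42 ± 0.19 in small tumours for Mvk, and 1.48 ± 0.17 and 1.59 ± 0.17 for Mvd. Idi1, the isomerase of isopentenyl diphosphate, was low in level, with 0.540, 1.83 and 4.99 CPM in large and 0.786, 2.21 and 4.57 CPM in small tumours, against 0.298, 0.796 and 1.83 CPM in liver tissue. Its log2 fold change was 1.36 ± 0.23 and 1.53 ± 0.23. Pmvk, the next kinase, differed least among those called (0.51 ± 0.13 in large and 0.31 ± 0.13 in small tumours). Fdps, which joins the isoprenoid units into farnesyl diphosphate, was 0.92 ± 0.14 and 0.91 ± 0.14 higher. Acat2, the thiolase that opens the route, had 18.3, 32.9 and 65 CPM in large tumours and 20.5, 33.9 and 48.7 CPM in small tumours, against 26.5, 33.5 and 41.3 CPM in liver tissue, with medians close together. Its log2 fold change was −0.02 ± 0.11 and −0.05 ± 0.11 and did not pass the test at either size.

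Of the 11 genes from farnesyl diphosphate to cholesterol, 9 were called higher and 1 lower at both sizes, with medians of 1.23 in large and 1.30 in small tumours. Sqle had 102, 215 and 319 CPM in large tumours and 98.4, 230 and 338 CPM in small tumours, against 13.5, 29.7 and 91.1 CPM in liver tissue. Neither tumour group overlapped liver tissue, and the log2 fold change was 2.50 ± 0.20 in large tumours (adjusted p = 2.88e-17) and 2.65 ± 0.20 in small tumours (adjusted p = 7.94e-18). Lss, which closes oxidosqualene into lanosterol, had 94.8, 197 and 322 CPM in large tumours and 101, 196 and 313 CPM in small tumours, against 37.6, 49.1 and 99.8 CPM in liver tissue. All small tumours and 23 of 25 large tumours lay above the highest liver tissue library, and the log2 fold change was 1.85 ± 0.17 in large and 1.80 ± 0.16 in small tumours. Dhcr7, the reductase of the last steps, had 125, 209 and 365 CPM in large tumours and 119, 211 and 349 CPM in small tumours, against 50.8, 62.7 and 144 CPM in liver tissue. It was 1.71 ± 0.13 higher in large tumours (adjusted p = 6.93e-18) and 1.64 ± 0.13 higher in small tumours.

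Most members between lanosterol and the end of the route were higher too. Cyp51, the lanosterol demethylase, was 1.56 ± 0.15 higher in large and 1.52 ± 0.15 higher in small tumours. The demethylating enzymes followed, with Msmo1 1.23 ± 0.18 and 1.32 ± 0.18 higher, Nsdhl 1.32 ± 0.15 and 1.30 ± 0.15 higher and Hsd17b7 0.72 ± 0.15 and 0.75 ± 0.15 higher. Sc5d, the sterol desaturase late in the route, was 0.73 ± 0.10 and 0.72 ± 0.10 higher, and Fdft1, squalene synthase at its head, 0.80 ± 0.13 and 0.67 ± 0.13 higher. Ebp, the isomerase of the sterol double bond, went the other way, with 85.2, 131 and 188 CPM in large tumours and 66.7, 143 and 222 CPM in small tumours, against 155, 218 and 254 CPM in liver tissue. It was 0.70 ± 0.10 lower in large tumours, 20 of which lay below the lowest liver tissue library, and 0.53 ± 0.11 lower in small tumours. Tm7sf2, a sterol reductase, had 32.6, 70.6 and 114 CPM in large tumours and 36.7, 69.0 and 116 CPM in small tumours, against 52.0, 78.4 and 97.4 CPM in liver tissue. The liver tissue range lay inside the tumour ranges, and the log2 fold change of −0.09 ± 0.13 and −0.10 ± 0.13 did not pass the test.

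**Figure D2:**
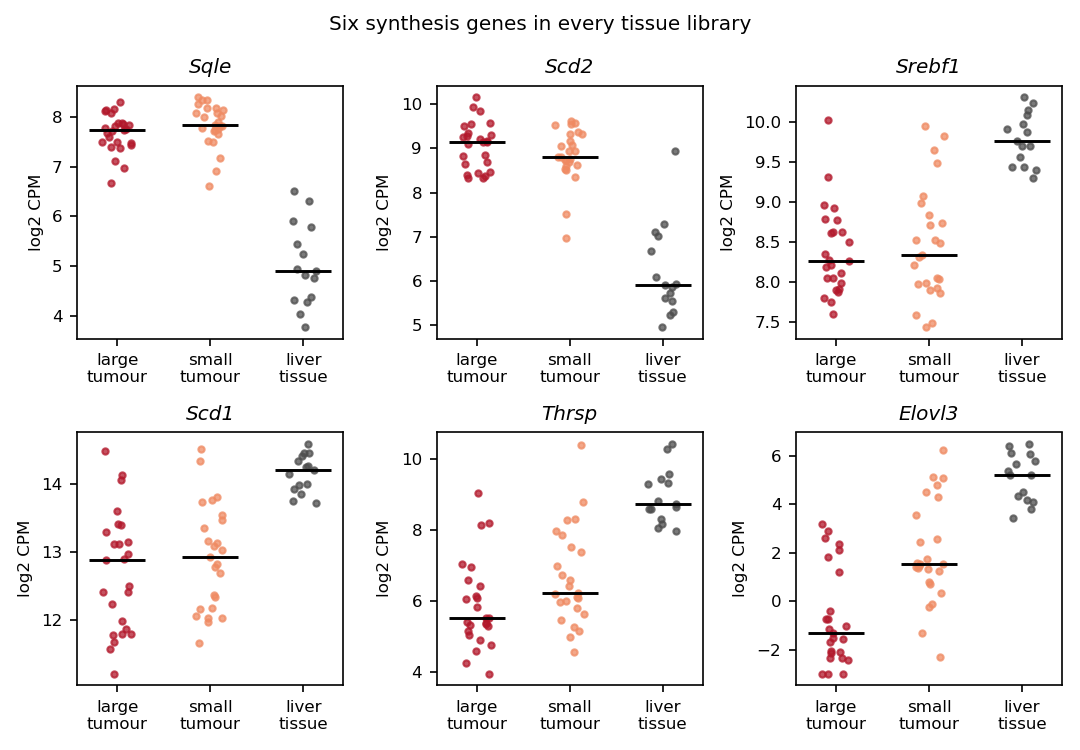
Log2 CPM of Sqle, Scd2, Srebf1, Scd1, Thrsp and Elovl3 in each whole-tissue library (25 large tumours, 25 small tumours, 15 liver tissue), with a bar at each median. Sqle does not overlap between tumours and liver tissue, and the large tumours lie below all liver tissue libraries for Elovl3.

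The regulators and carriers did not move as 1 group: of 6, 3 were called higher and 2 lower at both sizes, with a median of 0.16 in large and 0.17 in small tumours. The 2 SREBP genes went opposite ways. Srebf2 had 68.4, 106 and 127 CPM in large tumours and 64.5, 96.6 and 133 CPM in small tumours, against 53.1, 60.9 and 66.9 CPM in liver tissue. The large tumours did not overlap liver tissue, 24 of 25 small tumours lay above it, and Srebf2 was 0.77 ± 0.07 higher in large tumours (adjusted p = 9.54e-15) and 0.69 ± 0.07 higher in small tumours. Srebf1 had 193, 305 and 1042 CPM in large tumours and 173, 323 and 992 CPM in small tumours, against 630, 871 and 1267 CPM in liver tissue. Of the tumours, 23 large and 21 small lay below the lowest liver tissue library. It was 1.47 ± 0.18 lower in large tumours (adjusted p = 6.69e-11) and 1.32 ± 0.18 lower in small tumours.

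Thrsp, a nuclear protein that follows lipogenic activity in liver and fat, had 15.3, 46.0 and 528 CPM in large tumours and 23.4, 74.9 and 1355 CPM in small tumours, against 254, 424 and 1386 CPM in liver tissue. Most tumours, 22 large and 21 small, lay below the lowest liver tissue library, while the highest tumours reached the liver tissue range. The log2 fold change was −3.16 ± 0.35 and −2.24 ± 0.36. Of the sterol sensors, Insig1 was 0.42 ± 0.10 higher in large and 0.41 ± 0.10 higher in small tumours, and Insig2 differed by −0.04 ± 0.12 and −0.08 ± 0.12 and did not pass the test. Stard4, a cytosolic sterol carrier, was 0.37 ± 0.09 higher in large and 0.57 ± 0.09 higher in small tumours.

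Of the 5 genes leading to palmitate, 1 was called higher and 2 lower at both sizes, with medians of −0.38 in large and −0.09 in small tumours. Acly, which cuts citrate into acetyl-CoA, had 243, 416 and 1530 CPM in large tumours and 241, 463 and 1039 CPM in small tumours, against 198, 277 and 478 CPM in liver tissue, and was 0.72 ± 0.17 higher in large and 0.71 ± 0.17 higher in small tumours. Me1, the malic enzyme that supplies NADPH, had 20.7, 34.3 and 93.5 CPM in large tumours and 14.6, 40.6 and 97.2 CPM in small tumours, against 64.4, 93.6 and 142 CPM in liver tissue. The tumour medians lay below the lowest liver tissue library, and Me1 was 1.36 ± 0.16 lower in large and 1.21 ± 0.16 lower in small tumours. Acss2, which makes acetyl-CoA from acetate, had 52.3, 104 and 277 CPM in large tumours and 63.5, 108 and 252 CPM in small tumours, against 125, 158 and 246 CPM in liver tissue, with overlapping ranges (log2 fold change −0.48 ± 0.16 and −0.54 ± 0.16).

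The 2 committed enzymes of the route did not pass the test. Fasn, fatty acid synthase, had 218, 690 and 2750 CPM in large tumours and 336, 752 and 3384 CPM in small tumours, against 620, 951 and 1507 CPM in liver tissue. Its tumour levels ran both below and above the whole liver tissue range. Its log2 fold change was −0.38 ± 0.21 in large tumours (adjusted p = 0.102) and −0.09 ± 0.21 in small tumours (adjusted p = 0.712). Acaca, acetyl-CoA carboxylase, differed by 0.15 ± 0.14 and 0.18 ± 0.14.

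Of the 8 genes that lengthen, desaturate or esterify fatty acids, 4 were called higher and 4 lower in large tumours, and 4 higher and 3 lower in small tumours, with medians of 0.02 at both sizes. The 2 stearoyl-CoA desaturases, which place the double bond of oleate and palmitoleate, went opposite ways. Scd1, the main form in liver, had 2378, 7575 and 23001 CPM in large tumours and 3236, 7776 and 23369 CPM in small tumours, against 13463, 18940 and 24639 CPM in liver tissue. Most tumours, 22 large and 20 small, lay below the lowest liver tissue library. It was 1.20 ± 0.24 lower in large and 1.07 ± 0.24 lower in small tumours. Scd2, better known from brain and from the developing liver in mice, had 322, 565 and 1137 CPM in large tumours and 126, 445 and 784 CPM in small tumours, against 31.0, 59.95 and 488 CPM in liver tissue. All tumours lay above the liver tissue median, and 15 large and 11 small tumours lay above its highest library. Its log2 fold change was 2.65 ± 0.27 in large tumours (adjusted p = 2.42e-13) and 2.37 ± 0.26 in small tumours. Scd1 and Scd2 are close paralogues next to each other, so reads that match both could be split between them in the authors' counting.

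Elovl3 had 0, 0.278 and 9.05 CPM in large tumours, 3 of which held no read of it, and 0.0737, 2.78 and 75.9 CPM in small tumours, against 10.8, 37.0 and 89.8 CPM in liver tissue. Large tumours did not overlap liver tissue, while small tumours spread over both ranges. It was 4.21 ± 0.55 lower in large tumours (adjusted p = 6.31e-10) and 2.09 ± 0.49 lower in small tumours (adjusted p = 1.55e-04). Elovl6, which lengthens palmitate to stearate, had medians of 71.1 CPM in large and 79.7 CPM in small tumours, against 171 CPM in liver tissue, and was 1.13 ± 0.22 and 1.01 ± 0.22 lower. Elovl5, an elongase of polyunsaturated chains, was 0.39 ± 0.18 lower in large tumours (adjusted p = 0.0444) and did not pass the test in small tumours (−0.34 ± 0.18, adjusted p = 0.0877). The polyunsaturated desaturases Fads1 and Fads2 were 0.44 ± 0.16 and 0.54 ± 0.19 higher in large tumours and 0.37 ± 0.16 and 0.43 ± 0.19 higher in small tumours. Gpam, which starts glycerolipid synthesis, had medians of 367 CPM in large and 388 CPM in small tumours, against 196 CPM in liver tissue, and was 0.88 ± 0.13 higher in large and 0.91 ± 0.13 higher in small tumours.

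Per kilobase of exon, the levels spanned the whole set. Scd1 had the highest median of all 37 members in every group, with 1549 CPM per kilobase in large tumours and 1590 in small tumours, against 3872 in liver tissue. Fads2 came next in tumours, at 260 CPM per kilobase at both sizes, and lay at 192 in liver tissue. Thrsp ranked beside it in liver tissue at 194 CPM per kilobase but lay at 21.0 in large and 34.2 in small tumours. Srebf1 came after them in liver tissue at 155 CPM per kilobase and lay at 54.2 in large and 57.3 in small tumours. Fads2 and Thrsp in liver tissue did not differ beyond their spread.

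The tissue libraries were sequenced in 3 runs, each holding all 3 groups, and run was a term in the fit. Within the runs, the large-tumour log2 fold change was 2.19, 2.85 and 2.39 for Sqle, 0.76, 0.74 and 0.72 for Srebf2 and 2.1, 3.24 and 2.59 for Scd2. Scd1 kept its direction but was not called in run 3 (−1.11 in large and −0.83 in small tumours). Exons of some members overlap other genes, so part of their reads may not be counted for them. Over 5% of exon length overlaps another gene for Hmgcs1, Idi1, Fdps, Fdft1, Tm7sf2 and Acss2, most in Fdps at 26.7%. Among these, only Fdps (26.7%) and Tm7sf2 (12.1%) overlap a gene on the same strand. For the others the overlap matters only if the counting ignored strand, a setting that is not given. Idi1 and Fdps also have near-identical copies in the genome.

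Genes beside the pathway were read in lists chosen with earlier results of these data known. Over all genes, 38.5% were called higher and 32.1% lower in large tumours, and 34.7% and 31% in small tumours. Of 14 further genes of sterol uptake, storage and branch pathways, 6 were called higher and 5 lower in large tumours (median 0.07), and 6 and 2 in small tumours (median 0.03). Npc1l1, a sterol importer, was 2.94 higher in large and 3.18 higher in small tumours, Soat2, which esterifies cholesterol, 0.72 and 0.74, and Abca1, a cholesterol exporter, 0.56 and 0.59. Abcg5 and Abcg8, which together export sterols into bile, were 0.72 and 0.38 lower in large tumours. Of 11 further regulators, 3 were called higher and 6 lower at both sizes, with a median of −0.36 in large and −0.27 in small tumours. In large tumours Mbtps2, a protease that releases SREBP, was 0.48 higher, Scap, its escort, 0.47 and Usf1 0.41, while Pparg was 1.02 lower, Mlxipl, the glucose-responsive factor ChREBP, 0.94 and Usf2 0.43. Of 21 further lipogenic and lipid droplet genes, 6 were called higher and 11 lower at both sizes, with a median of −0.33 in large and −0.31 in small tumours. In large tumours Elovl7 was 3.70 higher and the acyl-CoA synthetases Acsl4 and Acsl5 1.74 and 1.20 higher, while the lipid droplet genes Cidea and Cidec were 2.42 and 1.4 lower and the synthetase Acsl1 1.59 lower.

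Markers of cell types differed as well. Summed hepatocyte markers, with 9 genes in the list, had a median of 211643 CPM in large tumours (142123 to 275236) and 236231 CPM in small tumours (128625 to 295855), against 95781 CPM in liver tissue (72456 to 146063), and 6 of the 9 were called higher and 2 lower. All 10 Kupffer cell and macrophage markers were called lower at both sizes, with a summed median of 545 CPM in large tumours (252 to 1097) and 804 CPM in small tumours (372 to 1220), against 1382 CPM in liver tissue (1022 to 1815). All 5 cell cycle genes were called higher at both sizes, with a summed median of 31.9 CPM in large tumours (11.1 to 77.8) and 39.3 CPM in small tumours (12.2 to 104), against 8.98 CPM in liver tissue (4.91 to 37.1). The part of these shifts in the members' differences was not tested. Within the hepatocyte list the defining gene Alb was far above 0 in every tissue library, at 283% of the liver tissue median in large and 309% in small tumours.

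Between tumour sizes 1 of the 37 members was called, Elovl3, which was lower in large tumours by 2.12 ± 0.52 (adjusted p = 0.0170), where 2.48% of 14538 genes were called (0.929% higher and 1.55% lower). The members' median log2 fold change was 0.00, beside 0.01 over all genes, and the medians by role lay between −0.07 and 0.01. Within the runs Elovl3 differed by −2.86, −2.90 and −0.65 and was called in none of them. The next largest difference was in Thrsp, at −0.92 ± 0.31 (adjusted p = 0.0859).

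The spread of Fasn among tumours followed Srebf1. Over 25 large tumours the log2 levels of the 2 genes correlated with Pearson's r = 0.81 and Spearman's rho = 0.73, and over 25 small tumours with r = 0.81 and rho = 0.79. Permutation tests (100000 resamples, two-sided) gave adjusted p = 4.0e-05 for r and 6.0e-05 for rho at both sizes, over 4 relations computed in this family. Without the 2 tumours farthest from the median of Srebf1, r was 0.68 and 0.75. Within runs, r was 0.81, 0.59 and 0.86 in large tumours and 0.76, 0.60 and 0.82 in small tumours. Sqle and Fasn showed no such relation, with r = −0.04 in large tumours (rho = −0.16) and −0.06 in small tumours (rho = −0.07), at adjusted permutation p = 0.83 for r, and 0.594 and 0.741 for rho. Within runs that r was −0.35, 0.54 and −0.36 in large tumours and −0.51, 0.01 and 0.34 in small tumours, so its sign differed between runs. The points of each plot share library and tissue makeup, and tumours of 1 mouse may be among them.

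**Figure D3:**
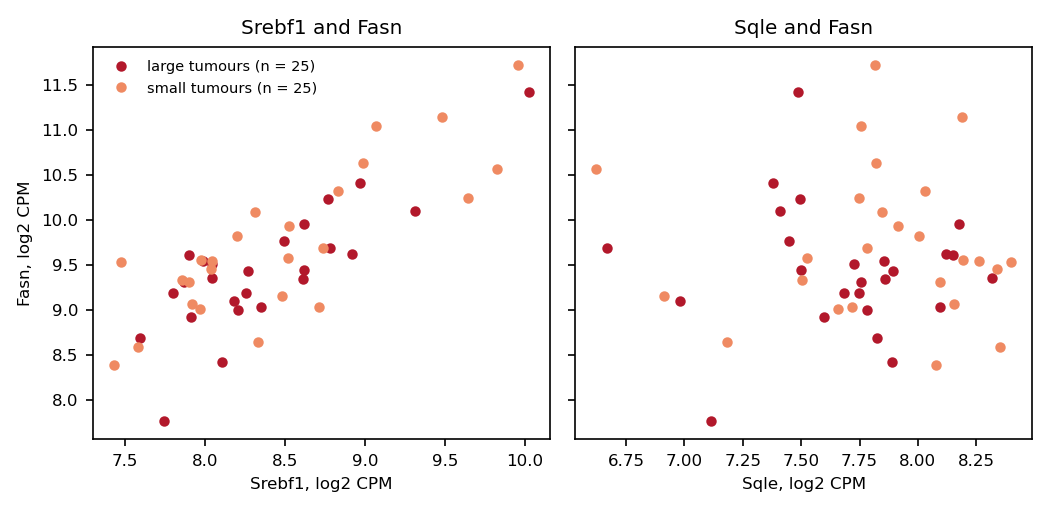
Log2 CPM of Fasn against Srebf1 and against Sqle in 25 large and 25 small tumours, 1 point per tumour. Fasn climbs with Srebf1 (r = 0.81 at both sizes), and shows no slope against Sqle (r = −0.04 and −0.06).

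The second set of comparisons asks how neutrophils in liver differ from neutrophils in the blood of the same mouse, under each treatment. Members of both routes were higher in liver-derived neutrophils, most of all the desaturases Fads1, Fads2 and Scd1 and the sterol enzyme Sqle, which few reads of blood neutrophils matched. Srebf2 was higher in liver in 29 of 29 animals. Acss2 and Sc5d were lower in liver under every treatment. Liver-derived libraries also carried RNA of hepatocytes and macrophages, as given below.

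Of the 34 members tested, 19 were called higher and 2 lower in untreated mice, 23 and 2 under anti-PD1, 22 and 3 under the CXCR2 inhibitor, and 19 and 2 under the combination. Of 12909 genes tested, 43%, 54.6%, 40.3% and 45.4% were called (higher 26.1%, 32.8%, 23.5% and 24.5%, lower 17%, 21.8%, 16.8% and 20.9%). The members' median log2 fold changes were 1.97, 2.23, 1.27 and 1.27, beside 0.15, 0.24, 0.09 and 0.06 over all genes tested. The 13 members called higher under all 4 conditions were Mvk, Sqle, Cyp51, Nsdhl, Srebf2, Insig1, Stard4, Fasn, Elovl5, Scd1, Scd2, Fads1 and Fads2. Acat2, Ebp, Insig2 and Srebf1 were tested and called under none. A member could pass the filter on low counts through the liver libraries alone, so these counts describe the tested members and not the whole set. Thrsp, Me1 and Elovl3 were too low to be tested.

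Srebf2 had 21.5, 35.8 and 58.7 CPM (lowest, median and highest) in liver neutrophils of untreated mice, against 4.55, 8.13 and 18.4 CPM in their blood neutrophils. Under anti-PD1 it had 66.6, 76.2, 28.7, 69.3 and 46.9 CPM in liver, against 18.9, 18.5, 5.26, 6.85 and 42.0 CPM in blood, given animal by animal for 5 mice. Under the CXCR2 inhibitor it had 24.0, 97.6 and 122 CPM in liver, against 7.39, 26.4 and 64.2 CPM in blood. The groups overlapped under both agents but every animal had more in liver. The paired log2 fold change was 1.87 in untreated mice, 1.94 under anti-PD1, 1.65 under the CXCR2 inhibitor and 1.80 under the combination.

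Fads1, which places the double bond that completes arachidonic acid, had 0.746, 2.82 and 18.1 CPM in liver neutrophils of untreated mice, against 0, 0 and 0.102 CPM in blood. Summed over the libraries these were 144 reads in liver and 1 in blood, a ratio of 257 at equal depth with a counting interval of 45.3 to 10209. Fads2 had 175 reads in liver and 2 in blood (ratio 156, interval 42.5 to 1298), and Sqle 73 and 3 (ratio 43.4, interval 14.3 to 215). These intervals cover counting error only. In liver tissue, made with another library kit, the median of Fads1 was 721 CPM. Hepatocyte RNA in these neutrophil libraries is given below. For Fads2, 1 liver library (replicate 2) had 33.2 CPM and the next highest 3.27 CPM, so its summed reads rest mostly on that library. Under the other treatments the fitted log2 fold change of Fads1 was 6.58 ± 0.93 with anti-PD1, 4.95 ± 0.74 with the CXCR2 inhibitor and 4.74 ± 0.74 with the combination. With anti-PD1 its blood level rested on 1 library (replicate 5, 1.17 CPM), the rest being at 0. Fads2 was 5.51 ± 1.09 higher with anti-PD1 and 3.97 ± 0.96 with the combination. Under anti-PD1 Sqle had 207 reads in liver and 3 in blood, a ratio of 83.1 (interval 28.0 to 406). Hsd17b7, which reduces a sterol ketone, was 3.48 ± 0.73 higher under the CXCR2 inhibitor, and Tm7sf2 was 1.14 ± 0.42 lower there. Of the members too low to test, Me1 had 31 reads in liver and 0 in blood in untreated mice (at least 18.4-fold higher at equal depth against a floor of 3 counts over the group), and Thrsp 24 and 0 (at least 14.3-fold higher).

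Scd1 had 7.10, 43.7 and 222 CPM in liver neutrophils of untreated mice, against 0.165, 0.710 and 1.73 CPM in blood, with no overlap, and was 6.25 ± 1.00 higher (adjusted p = 2.78e-05). It was 3.59 ± 0.69 higher under the CXCR2 inhibitor and 4.66 ± 0.81 higher under the combination. Fasn had 3.69, 11.7 and 67.0 CPM in liver, against 0, 0.284 and 1.83 CPM in blood, and was higher in liver in 29 of 29 animals over all treatments. Under the CXCR2 inhibitor Fasn was again low in blood, with 2.73, 5.42 and 11.1 CPM in liver, against 0, 0.641 and 2.02 CPM in blood. Stard4, Insig1, Hmgcs1, Acaca and Scd2 were each higher in liver in 28 of 29 animals.

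Acss2 and Sc5d, called lower under all 4 conditions, ran against most members in neutrophils. Acss2 had 11.9, 19.3 and 27.9 CPM in liver neutrophils of untreated mice, against 33.5, 41.6 and 53.9 CPM in blood, with no overlap. Under anti-PD1 it had 14.9, 13.2, 26.1, 7.21 and 12.6 CPM in liver, against 35.8, 43.5, 42.9, 47.0 and 16.7 CPM in blood, with overlap from 1 animal on each side. It was lower in liver in 29 of 29 animals. The log2 fold changes were −1.06 ± 0.22 (adjusted p = 3.87e-04), −1.36 ± 0.25, −0.88 ± 0.17 and −1.13 ± 0.20 in untreated mice and under anti-PD1, the CXCR2 inhibitor and the combination. Sc5d had 26.4, 60.7 and 66.4 CPM in liver of untreated mice, against 54.7, 84.1 and 94.7 CPM in blood, and was lower in liver in 28 of 29 animals. Its log2 fold change was −0.67 ± 0.24, −1.22 ± 0.27, −0.47 ± 0.18 and −1.19 ± 0.21 in the same order of treatments.

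Markers of other cells moved with these differences. Summed hepatocyte markers reached 40.1 to 932 CPM (median 379) in liver neutrophils of untreated mice, against 1.38 to 16.6 CPM in blood, and 8 of the 8 tested were called higher. Kupffer cell and macrophage markers were called higher for 7 of 9 tested and lower for 1 (summed level 256 to 721 CPM in liver, against 352 to 535 CPM in blood), and T cell markers higher for 5 of 6 (0.750 to 253 CPM in liver, against 1.31 to 4.95 CPM in blood). The part of these RNAs in the members' differences was not tested. Leaving libraries out cannot measure it, since the kept liver libraries may hold up to 200 CPM of hepatocyte markers. In untreated mice even the lowest liver library (40.1 CPM) exceeded the highest blood library (16.6 CPM). As a share of their median CPM in liver tissue, which was made with another library kit, Scd1 in liver neutrophils of untreated mice was at 0.230% and Alb at 0.405%, while Srebf2 was at 58.7%. The low levels of Fads1 given above lay against a liver tissue median of 721 CPM. Without the libraries above 200 CPM of hepatocyte markers, the members called were 7 in untreated mice, 8 under anti-PD1, 24 under the CXCR2 inhibitor and 20 under the combination, where 13.5%, 19.5%, 41.1% and 38.4% of all genes were called in the same fit. In that reduced set Fads1 was 6.91 (adjusted p = 0.0230), Scd1 6.32 (adjusted p = 0.0219) and Acss2 −0.94 (adjusted p = 0.0427) in untreated mice, while Fads2 was 3.53 (adjusted p = 0.369) and Sc5d −0.88 (adjusted p = 0.107). Without the shallow and Cd3e-rich libraries, 12 members were called in untreated mice and 9 under anti-PD1, where 27.2% and 23.6% of all genes were called. Sc5d was then −0.46 (adjusted p = 0.224) and −0.66 (adjusted p = 0.0870).

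**Figure D4:**
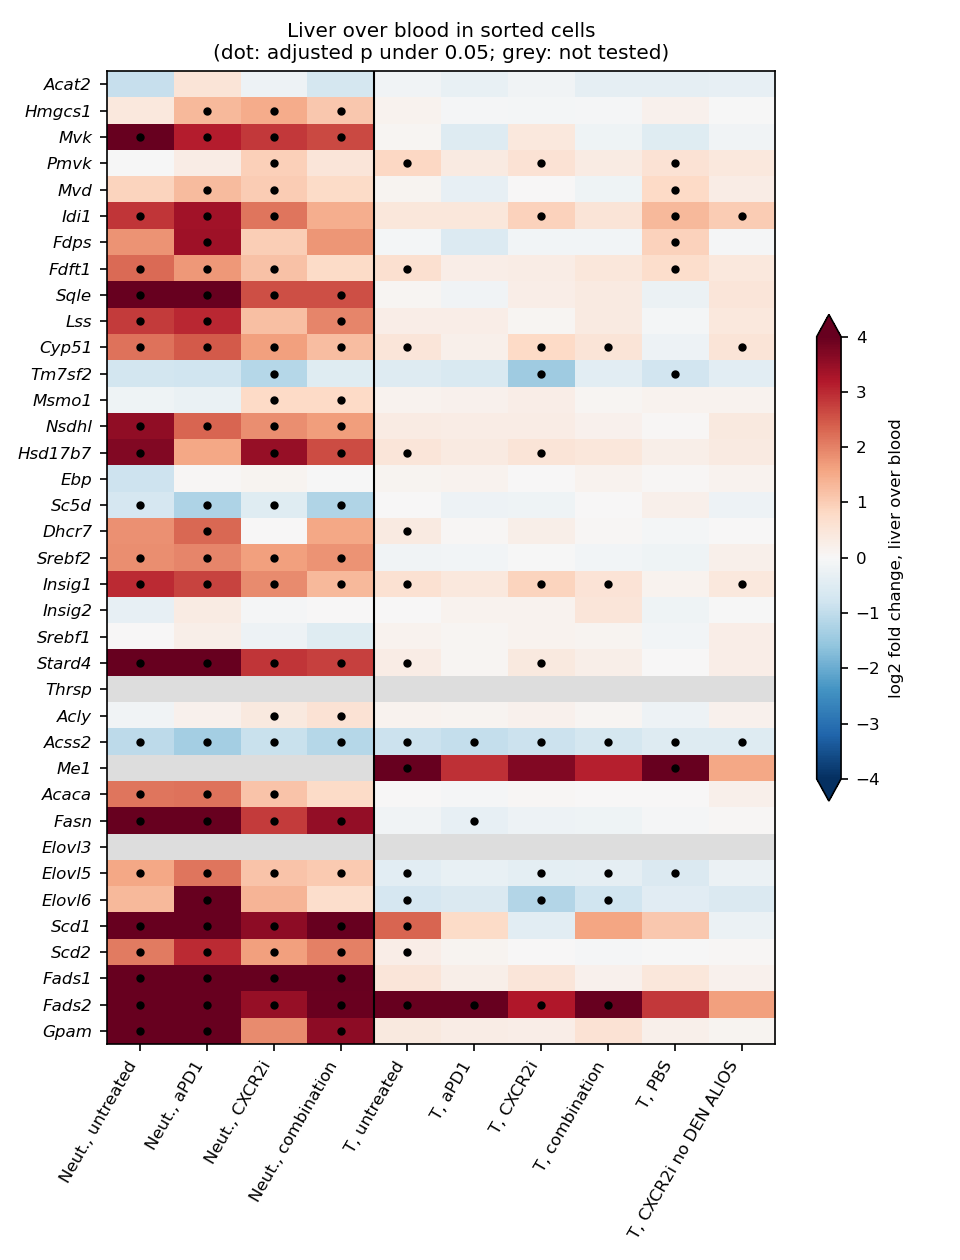
Log2 fold change of each member in liver over blood, in neutrophils (4 treatments) and T cells (6 treatments); colour runs to 4 in either direction, dots mark calls and grey marks members too low to test. Neutrophil columns are mostly high with Acss2 and Sc5d low, and T cell columns lie close to 0 except for a few members.

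In T cells fewer members were called between liver and blood, Acss2 again being lower in liver. Of the 35 members tested, 11 were called higher and 3 lower in untreated mice, 1 and 2 under anti-PD1, 7 and 4 under the CXCR2 inhibitor, and 3 and 3 under the combination. In mice given the CXCR2 inhibitor without DEN ALIOS 3 were called higher and 1 lower, and in PBS mice 6 and 3. Of 13876 genes tested, 33%, 16.5%, 34%, 16.2%, 16.6% and 34.9% were called in that order (higher 19.8%, 9.25%, 19.9%, 8.88%, 10% and 18.3%, lower 13.2%, 7.29%, 14.1%, 7.33%, 6.57% and 16.6%). The members' median log2 fold changes were 0.15, 0.10, 0.15, 0.11, 0.17 and 0.03, beside −0.02 to 0.04 over all genes. With Me1 and Fads2 at their lower bound where blood held no read of them, these medians were the same. Under another scaling (DESeq2's size factors in place of TMM) the higher share of all calls in PBS mice was 62.8%, against 52.5% with TMM. Acss2 was the only member called under all 6 conditions, always lower in liver, and 16 members were called under none.

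Acss2 had 17.4, 22.9 and 25.9 CPM in liver T cells of untreated mice, against 34.8, 38.7 and 47.9 CPM in blood. Under anti-PD1 the 5 animals had 14.4, 16.5, 19.3, 14.1 and 16.8 CPM in liver, against 38.5, 33.8, 32.1, 28.4 and 24.5 CPM in blood of the same animals in turn. Under the combination they had 19.7, 19.6, 20.5, 20.3 and 27.9 CPM in liver, against 40.4, 43.4, 30.5, 29.0 and 34.8 CPM in blood. The 2 sites did not overlap in these 3 groups. Mice given the CXCR2 inhibitor without DEN ALIOS had 25.6, 36.7 and 38.3 CPM in liver, against 43.7, 50.0 and 53.6 CPM in blood, again without overlap. PBS mice had 8.84, 30.005 and 57.8 CPM in liver, against 36.8, 40.8 and 59.2 CPM in blood, and there the sites overlapped. The lowest and highest of these liver values rested on 3 and 15 reads, and the highest came from the 1 PBS animal with more in liver. Acss2 was lower in liver in 35 of 36 animals. The log2 fold changes were −0.87 ± 0.15 in untreated mice, −0.95 ± 0.17 under anti-PD1, −0.85 ± 0.15 under the CXCR2 inhibitor, −0.72 ± 0.17 under the combination, −0.51 ± 0.15 with the CXCR2 inhibitor without DEN ALIOS and −0.53 ± 0.14 in PBS mice. Whether the gap differs between mice with and without the cancer regimen was not tested.

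**Figure D5:**
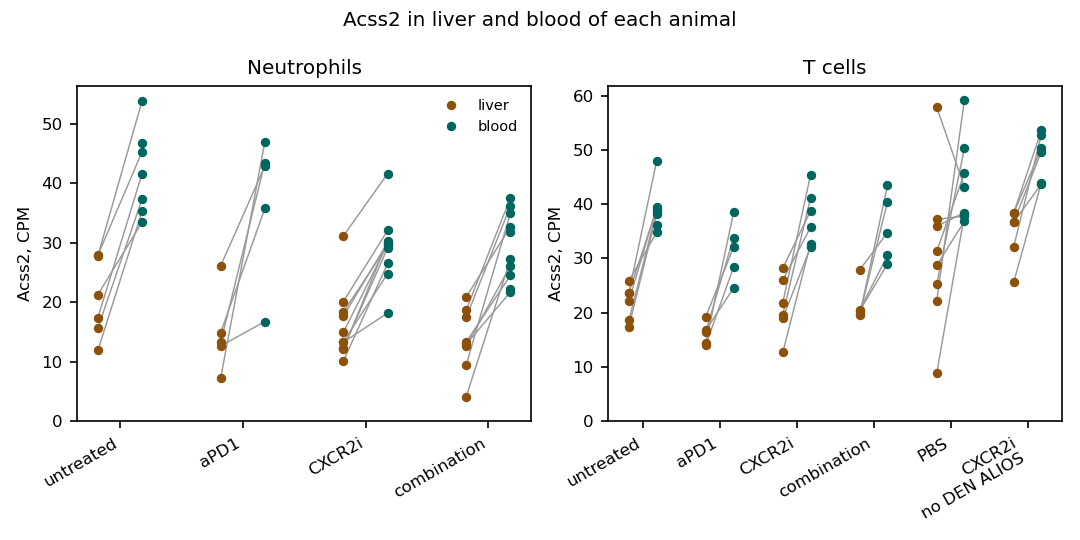
CPM of Acss2 in liver and in blood, with a line for each animal, in neutrophils (29 animals) and T cells (36 animals). The line points to a lower level in liver in 29 of 29 neutrophil pairs and 35 of 36 T cell pairs.

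Of the elongases, Elovl5 and Elovl6 were lower in liver T cells in most animals, and Elovl3 was too low to be tested. Elovl5 was lower in liver in 35 of 36 animals, and was called in untreated mice (−0.44 ± 0.11), under the CXCR2 inhibitor (−0.38 ± 0.11), under the combination (−0.35 ± 0.12) and in PBS mice (−0.59 ± 0.10). Elovl6 was lower in liver in 34 of 36 animals. Under anti-PD1 it had 10.8, 8.12, 12.0, 11.5 and 11.6 CPM in liver, against 12.8, 15.4, 17.6, 14.9 and 20.3 CPM in blood, without overlap and without passing the test. It was called in untreated mice (−0.68 ± 0.23), under the CXCR2 inhibitor (−1.17 ± 0.22) and under the combination (−0.80 ± 0.24). Fasn, abundant in T cells of both sites, was 0.34 ± 0.12 lower in liver under anti-PD1 (adjusted p = 0.0474), a call that was lost in each fit that left out 1 of the 5 animals (adjusted p from 0.0563 to 0.163).

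Some sterol members were called higher in liver T cells. In the order of conditions above, these were 1, 0, 2, 0, 1 and 4 of the 7 mevalonate genes. Of the 11 genes from farnesyl diphosphate to cholesterol they were 4, 0, 2, 1, 1 and 1. Over all genes 19.8%, 9.25%, 19.9%, 8.88%, 10% and 18.3% were called higher. Insig1 was higher in liver in 33 of 36 animals, by 0.90 ± 0.14 under the CXCR2 inhibitor, 0.55 ± 0.16 under the combination and 0.43 ± 0.15 with the CXCR2 inhibitor without DEN ALIOS. Idi1 was 0.91 ± 0.33 higher under the CXCR2 inhibitor, 1.01 ± 0.34 with it without DEN ALIOS and 1.31 ± 0.32 in PBS mice. In PBS mice 2 liver libraries held 14.5 and 26.8 CPM of Idi1 and the other 6 held 0 to 6.55 CPM, against 2.02 to 3.95 CPM in blood, and 6 of 8 animals had more in liver. Fdps was 0.92 ± 0.18 higher in PBS mice. Cyp51 was 0.53 ± 0.19 higher under the combination and 0.53 ± 0.17 with the CXCR2 inhibitor without DEN ALIOS. Tm7sf2 went the other way, 1.41 ± 0.32 lower under the CXCR2 inhibitor and 0.76 ± 0.28 lower in PBS mice.

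A few members were rare in blood T cells. Fads2 had 1.25, 5.25 and 34.8 CPM in liver of untreated mice, against 0, 0 and 0.833 CPM in blood, and was 5.24 ± 0.88 higher there, 3.21 ± 1.13 under the CXCR2 inhibitor and 4.13 ± 1.00 under the combination. Under anti-PD1 it had 53 reads in liver and 0 in blood, at least 16.1-fold higher at equal depth against a floor of 3 counts over the group. In untreated mice Me1 had 27 reads in liver and 0 in blood, at least 9.61-fold higher, and in PBS mice 17 and 1 (ratio 25.1, interval 3.93 to 1047). The reads of Me1 in untreated mice rest mostly on 1 liver library (replicate 2), at 4.73 CPM with the next highest at 1.02 CPM. Scd1 had 3.33, 8.76 and 184 CPM in liver of untreated mice, against 1.61, 2.85 and 8.96 CPM in blood, with overlap, and was 2.33 ± 0.74 higher. Its highest liver library (replicate 2) stood apart, with the next at 40.1 CPM. Liver T cells also held hepatocyte RNA: the summed markers had a median of 31.1 CPM and reached 686 CPM in untreated mice, against a highest value of 3.83 CPM in blood. Without the libraries above 200 CPM of these markers, 7 members were called in untreated mice, 1 under anti-PD1, 11 under the CXCR2 inhibitor, 3 under the combination, 4 with the CXCR2 inhibitor without DEN ALIOS and 6 in PBS mice. In the same fit 23.4%, 5.71%, 31.5%, 11.5%, 19.4% and 20.0% of all genes were called.

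The other pathway lists were read in the same way. Over all genes, 26.1% were called higher and 17% lower in neutrophils of untreated mice, and 19.8% and 13.2% in their T cells. These liver libraries also held hepatocyte RNA, and its part in the differences below was not tested. In liver neutrophils of untreated mice, 1 of 11 tested genes of sterol uptake, storage and branches was called higher (Nus1) and 6 lower, by 1.17 for Lbr and 1.11 for Aacs. Of 11 further regulators 3 were called higher and 3 lower, the higher ones being Pparg, Nr1h3 (4.95) and Mlxipl (3.73). Of 19 further lipogenic genes 8 were called higher and 4 lower, with Lpin1 5.07 higher and Agpat2 1.4 lower. In liver T cells of untreated mice the counts were 2 higher and 2 lower, 3 and 1, and 10 and 2, with Soat2 0.98, Pparg 4.25 and Mlxipl 4.07 higher and Elovl7 1.17 lower.

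The third set of comparisons asks whether a treatment changed the gap between liver and blood. No member was called in any of the 6 tests of this interaction with edgeR, 3 treatments in each cell type against untreated mice. Over all genes 0%, 0.55% (0.449% higher, 0.101% lower) and 2.42% (1.68% higher, 0.744% lower) were called in neutrophils, and 0.0216%, 1.38% and 0% in T cells, for anti-PD1, the CXCR2 inhibitor and the combination. Where no gene was called, 765 genes (neutrophils, anti-PD1) and 697 genes (T cells, combination) had an unadjusted p under 0.05. The nearest members were in neutrophils under the combination, where the liver-over-blood log2 difference was 1.70 ± 0.53 lower than in untreated mice for Insig1 (adjusted p = 0.0805) and 0.72 ± 0.22 higher for Acly (adjusted p = 0.0805). Under the CXCR2 inhibitor it was 1.06 ± 0.37 higher for Hmgcs1 (adjusted p = 0.163) and 0.98 ± 0.36 higher for Pmvk, and under anti-PD1 0.85 ± 0.43 higher for Hmgcs1 (adjusted p = 0.772) and 0.90 ± 0.50 higher for Ebp. In T cells the nearest were Scd1 (−2.75 ± 0.99, adjusted p = 0.223) and Tm7sf2 (−0.91 ± 0.43, adjusted p = 0.442) under the CXCR2 inhibitor, Pmvk and Mvk under anti-PD1 (−0.45 and −0.58) and Scd2 and Pmvk under the combination (−0.32 and −0.49).

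Liver-derived cells were also compared directly between treated and untreated mice, with the run set as a term. Untreated libraries were all of run set A, and anti-PD1 libraries shared no run set with them. In neutrophils that comparison was linked only through the other groups. In T cells anti-PD1 and the CXCR2 inhibitor were linked to untreated mice only through the combination group. A lack of calls in these comparisons therefore does not show a lack of effect. In liver neutrophils under the combination 2 of 32 members tested were called higher and 1 lower, where 10.8% of 11945 genes were called (5.66% higher and 5.12% lower). Srebf2 had 39.6, 85.6 and 116 CPM under the combination, against 21.5, 35.8 and 58.7 CPM in untreated mice, and was 1.24 ± 0.35 higher (adjusted p = 0.0237). Acly was 0.85 ± 0.20 higher (adjusted p = 0.00973). Scd1 had 6.73, 15.6 and 40.6 CPM under the combination, against 7.10, 43.7 and 222 CPM in untreated mice, and was 2.24 ± 0.66 lower (adjusted p = 0.0301). The groups overlapped for Srebf2 and Scd1.

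These 3 calls rest on libraries from several sequencing runs. Within the run set that holds the untreated mice, Srebf2 was 1.25 (adjusted p = 0.0534), Acly 0.85 (adjusted p = 0.0976) and Scd1 −2.36 (adjusted p = 0.0942). Without the libraries rich in hepatocyte markers Srebf2 was 1.16 (adjusted p = 0.0652) and Scd1 −0.94 (adjusted p = 0.370). Summed hepatocyte markers had a median of 120 CPM under the combination, against 379 CPM in untreated mice.

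No member was called in liver neutrophils under anti-PD1 (0% of genes called, 676 at an unadjusted p under 0.05) or under the CXCR2 inhibitor (0.142% of genes called) with edgeR. Under anti-PD1 the smallest p-values were those of Ebp (1.16 ± 0.58) and Srebf2 (0.85 ± 0.51, adjusted p = 0.766). Scd1 under the CXCR2 inhibitor differed by −3.20 ± 0.88 (adjusted p = 0.108) and Gpam by −4.88 ± 1.38 (adjusted p = 0.114). In liver T cells 0 of 34 members were called under anti-PD1, the CXCR2 inhibitor or the combination, where 0.00769%, 0.669% and 0.169% of 13005 genes were called and 1533, 2448 and 2157 had an unadjusted p under 0.05. The members nearest to a call were Ebp (−0.55 ± 0.18, adjusted p = 0.146) and Hmgcs1 (−0.55 ± 0.19) under the combination, Hmgcs1 (−0.89 ± 0.25, adjusted p = 0.261) and Sc5d (−0.63) under anti-PD1, and Gpam (−1.59 ± 0.65, adjusted p = 0.190) and Pmvk (−0.66) under the CXCR2 inhibitor.

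Liver T cells of untreated DEN ALIOS mice were last compared with those of PBS mice. Of 34 members tested, 2 were called higher and 1 lower, where 23.4% of 12008 genes were called (11.6% higher and 11.7% lower). Stard4 was 0.59 ± 0.16 higher in DEN ALIOS mice (adjusted p = 0.0125), Scd2 0.60 ± 0.19 higher (adjusted p = 0.0332) and Fdps, farnesyl diphosphate synthase, 1.15 ± 0.31 lower (adjusted p = 0.0134). The highest Fdps value of the PBS group, 23.1 CPM with the next at 11.8 CPM, came from a shallow library (replicate 4). Without the libraries rich in hepatocyte markers Scd2 was 0.44 higher (adjusted p = 0.168) and Fdps 0.93 lower (adjusted p = 0.0687). Each group was sequenced in runs of its own, so run and group cannot be told apart in this comparison.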

How the data were processed

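RNA of mouse tumours, liver tissue and sorted cells was sequenced, in 199 libraries of 23 groups. The deposited values are whole-number read counts, given in 1 table with a row for each gene. Per the submitters' processing notes, the tools were FastQC 0.11.8, Trim Galore 0.6.4, HISAT2 2.1.0 and HTSeq 0.11.2 on GRCm38, while the annotation and the strand setting of the counting are not given in the sources used here. Per the labels' protocols, whole tissue was made with a stranded mRNA kit and sorted cells with a low-input total RNA kit, so the 2 kinds were never tested against each other. The table's 5 summary rows, 63.2% of its entries, were left out.

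Groups come from the labels. The members, the lists and the tests were chosen with earlier results of these data known. Counts were tested with edgeR 4.0.16 (TMM, filterByExpr with a minimum count of 10 and a minimum total of 15, robust quasi-likelihood, R 4.3.3), with Benjamini-Hochberg adjustment over all genes tested. The SE is the fold change divided by the square root of the test's F. The 65 tissue libraries were fitted together with run as a term. Sorted cells were paired by the animal named in the labels (29 and 36 pairs), as a block with 1 liver term per treatment. As a check, deviations from the group means correlated on average by 0.0816 between libraries of the same neutrophil animal and by 0.158 for T cells, against −0.00850 and −0.0294 between animals. Liver-derived cells were compared between treatments with the run set as a term. Correlations used log2 CPM with a prior count of 2. On simulated counts the tissue fit found 98% of 2-fold and 100% of 4-fold changes with 4.35% false calls, and the paired neutrophil fit of untreated mice 4% and 26% with 0%. The simulation changed 200 genes, gave all genes 1 dispersion (0.1 in tissue, 0.3 in neutrophils) and held no differences between animals. Its shares describe those settings and not the measured data, where that neutrophil fit called 43% of genes.

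In each tissue comparison all members are named, with levels for the 3 largest per role and for those against their role's direction. Large against small tumours is given by role instead. In sorted cells the 3 largest calls per direction are named, or the 2 smallest p-values. Alternatives were other scaling (RLE), no filter, DESeq2 1.42.0, other terms and blocks, single runs, and libraries left out. Leaving out libraries above 200 CPM of hepatocyte markers was chosen after seeing the data. No pair of libraries in a group agreed within sampling noise, with a lowest chi-square per degree of freedom of 2.72 over 1116 pairs. Exon lengths and overlaps come from GENCODE vM21.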

Additional observations from a re-analysis of the deposited data

Results flagged for a closer look

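Among groups of 4 to 10 sorted libraries, 102 sets of values for the named members were read for a single library far from the rest, and 21 were found. The rule's nominal rate of about 1 in 20 groups assumes normally distributed values and does not hold for these skewed CPM. A set with all but 1 library at 0 is always flagged, so no excess over chance can be read from the count. In CPM, the neutrophil libraries that stood apart were these. In untreated mice, liver replicate 2 had 33.2 for Fads2 (next highest 3.27) and 222 for Scd1 (next 74.8). Blood replicate 3 had 0.284 for Fads2, blood replicate 7 had 0.102 for Fads1, and blood replicate 2 had 54.7 for Sc5d, below the next at 80.1. Under anti-PD1, blood replicate 5 had 1.17 for Fads1 and 0.502 for Fads2. Under the CXCR2 inhibitor, liver replicate 7 had 78.8 for Scd1 (next 28.4) and 31.1 for Acss2 (next 20.1). Under the combination, liver replicate 7 had 40.6 for Scd1 (next 21.8).

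In T cells of untreated mice, liver replicate 2 had 4.73 for Me1, 34.8 for Fads2 and 184 for Scd1, all the highest of its group. Blood replicate 2 had 0.833 for Fads2 and blood replicate 7 had 47.9 for Acss2. Under the CXCR2 inhibitor, liver replicate 3 had 9.87 for Fads2. Under the combination, liver replicate 3 had 15.6 for Fads2, blood replicate 1 had 0.605 for Fads2 and liver replicate 5 had 27.9 for Acss2. In PBS mice, blood replicate 4 had 0.144 for Me1 and liver replicate 4 had 23.1 for Fdps. That liver library was shallow, with 15 reads of Acss2 making 57.8 CPM.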

How the results depend on the processing

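Of 254 recomputed counts and correlations, 215 stayed the same by a loose rule. A count had to stay within 1.5 times the reported one, and a correlation only had to keep its sign. In tumours against liver tissue, the members called were 32 for large and 31 for small tumours, but 20 and 16 within run 3 alone. Calls over all genes fell there too, from 10253 to 5288 and from 9558 to 4540. Large against small tumours gave 1 member, 2 with DESeq2 and 0 within run 1, 2 or 3. Over all genes that comparison called 360, 565 with DESeq2, and 0, 8 and 2 within the runs. The correlation of Sqle with Fasn in large tumours was 0.0437 with values centred on run. For liver against blood in neutrophils, leaving out shallow or Cd3e-rich libraries gave 12 called in untreated mice and 9 under anti-PD1 (21 and 25 reported), and leaving out hepatocyte-rich libraries 7 and 8. Calls over all genes fell from 5556 and 7048 to 3442 and 2979 in the first fit and to 1780 and 2575 in the second. Without the libraries labelled vehicle or isotype, 14 were called under the CXCR2 inhibitor (25 reported), while calls over all genes fell from 5206 to 2432. In T cells, the same omission gave 9 in untreated mice and 3 under the CXCR2 inhibitor (14 and 11 reported), and omitting hepatocyte-rich libraries 7 in untreated mice, 1 under anti-PD1 and 3 under the combination (14, 3 and 6 reported). With the vehicle and isotype labels left out, calls over all genes under the CXCR2 inhibitor fell from 4712 to 2602. The shares of all genes without hepatocyte-rich libraries are given above. DESeq2 called 5 under anti-PD1, and leaving out shallow libraries gave 8 with the CXCR2 inhibitor without DEN ALIOS (4 reported). Leaving out 1 animal at a time gave 19 to 25 in neutrophils under anti-PD1, and 2 under anti-PD1 and 3 to 7 under the combination in T cells. Fasn under anti-PD1 lost its call in each of these.

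For the treatment tests of the gap, where 0 members were called, no filter gave 1 in neutrophils under the CXCR2 inhibitor and 1 in T cells under anti-PD1 and under the CXCR2 inhibitor. In neutrophils under the combination DESeq2 gave 2 and the fit with no replicate block 1. In T cells under the CXCR2 inhibitor DESeq2 gave 1 and omitting hepatocyte-rich libraries 1. In liver neutrophils under the CXCR2 inhibitor (0 reported), DESeq2 called 3, no run set term 5 and omitting shallow or Cd3e-rich libraries 1. Under the combination (3 reported) these gave 7 with DESeq2 and 5 with the omission, and run set A alone gave 0. Calls over all genes under the CXCR2 inhibitor rose from 17 to 326 with DESeq2 and 645 with no run set term. Under the combination they went from 1288 to 2176 with DESeq2, 2176 with the omission and 266 in run set A. In liver T cells no run set term gave 1 under the CXCR2 inhibitor (0 reported). DEN ALIOS against PBS (3 reported) gave 7 with DESeq2 and 5 without shallow libraries.

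The numbers in the titles do not pair whole-tissue or liver libraries (mean correlation 0.0478 over 55 tissue pairs). With them as a replicate block, 33, 29 and 1 members were called in the tissue comparisons, 2 in liver neutrophils under the combination and 4 in DEN ALIOS against PBS. Calls over all genes with that block fell from 360 to 123 in large against small tumours. They fell from 1288 to 736 in liver neutrophils under the combination and from 2804 to 1550 in DEN ALIOS against PBS. With no replicate block, neutrophils gave 26, 24, 24 and 26 members for untreated mice, anti-PD1, the CXCR2 inhibitor and the combination. Among named members, 1222 values kept their call, 136 lost it and 12 gained it. The 11 that changed sign were members that had not passed the test. In large tumours these were Acat2 (0.19), Insig2 (0.068) and Fasn (0.073) in run 3 and Acaca (−0.030) in run 1. In small tumours these were Acat2 (0.044), Tm7sf2 (0.19) and Acaca (−0.16) in run 1, Insig2 with the block (0.034) and in run 2 (0.0011), and Fasn without a run term (0.16) and in run 3 (0.60). RLE scaling moved the members' median log2 fold change by 0.18, 0.21 and 0.12 in liver against blood neutrophils of untreated, anti-PD1 and combination mice, and raised the higher share of all calls in untreated mice to 70.2%, against 60.6%. Over all genes, 88 of 242 recomputed counts moved by over 1.5 times, with large against small tumours at 565 genes by DESeq2, against 360. Within run set A no value exists under anti-PD1 or for T cells under the CXCR2 inhibitor. The cause of these shifts was not tested. Members at a few reads per library in sorted cells carry a large counting error.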
